A study of Homo sapiens with 45 samples.

Results

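The comparison set the CTCF regions found in cells labelled HEK293T under IAA against those found under the solvent DMSO. HEK293T is a human embryonic kidney cell line. Members were taken from 2 lists of enriched regions on hg19, 17440 regions for CTCF in DMSO and 595 for CTCF under IAA, or 18035 of the 53743 regions in the 12 lists of the series. A region is a distinct combination of chromosome, start and end. A DMSO region was called kept when an IAA CTCF region overlapped it by 1 bp or more, and lost when none did, so that lost means only that it was not listed.

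Both groups were labelled HEK293T and treated for 72 h, one with DMSO alone and one with IAA at 0.5 mM. Each had 3 ChIP-seq libraries made with a CTCF antibody. The growth protocol covers HEK293T and edited cells derived from it, and the labels do not say which of these received IAA or which protein IAA acts on. Whether the groups also differed in cell line is thus unknown, and such a difference could not be told apart from the treatment. Whether the 3 libraries of a group came from separate cultures is not given, and they were pooled by the authors before regions were called. Each value below therefore stands for 1 pooled list, has no replicate error, and no test between treatments was possible. The intervals are 95% Wilson intervals for shares and order-statistic intervals for medians, and cover counting over regions only. The lists of MBD2, MBD3 and TET1 in DMSO and under IAA, and those under the compound BPK25 (30 µM, 72 h), served as further readouts at the same CTCF regions. They were each made from 3 pooled libraries in the same way.

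CTCF is a zinc finger protein that binds a long, conserved DNA motif and halts the loop-extruding cohesin complex, so that many of its sites are loop anchors and insulators. MBD2 and MBD3 belong to the methyl-CpG-binding domain family and take alternative places in NuRD, a complex that remodels nucleosomes and removes histone acetyl groups, and the enzyme TET1 acts on 5-methylcytosine as an oxidase. IAA is commonly used as an auxin that removes proteins fused to an auxin-inducible degron. The study concerns the NuRD complex at CTCF sites, as its title states.

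Of the 17440 DMSO CTCF regions, 166 (0.952%, interval 0.818 to 1.11) were kept under IAA and 17274 were lost. The kept regions met 170 IAA regions, since 4 DMSO regions overlapped 2 IAA regions each, and no IAA region joined 2 DMSO regions. From the IAA side, 170 of 595 regions (28.6%, 25.1 to 32.3) lay at a DMSO CTCF region. With an overlap of at least 50% of the shorter region 164 regions were kept, and with summits within 150 bp 142 were. The smallest overlaps among kept regions were 31, 46 and 106 bp, the closest lost regions missed an IAA region by 25, 36 and 60 bp, and 60 lost regions lay within 1 kb of an IAA region.

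The IAA list was shallower, and the share of DMSO regions that its depth would list was calculated for comparison. The fold enrichment and the −log10 p of a region together fix a whole number of fragments at its summit (the pileup) and the local background the peak caller used. The lowest background of each list, its floor, was 4.35 fragments in DMSO, reached by 923 regions, and 0.937 fragments under IAA, reached by 129 regions. The ratio of the floors, 21.6%, was taken as the relative depth. If every DMSO region had kept its enrichment, its pileup and background would both scale by this ratio. At the least −log10 p of the IAA list, 5.26, 6398 regions (36.7%) would then be listed, where 166 were. With a depth ratio of 10.8%, which is 50% of the measured ratio, the expected share was 15.7%. The calculation assumes that the local background scaled as the floor did. It also takes DMSO pileups at face value, although regions entered by passing the caller in DMSO, which favours high DMSO values, so the expected shares here and below may be too high by an amount that was not tested. Weaker immunoprecipitation and less CTCF on the DNA give the same change in such a list and cannot be told apart.

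The gap between expected and listed regions was present at every level of enrichment. Quartiles of DMSO fold were cut over all 17440 DMSO regions. The 15590 DMSO regions whose background was at most 3 times the floor are called low background below. From the lowest to the highest quartile, 3419, 3931, 4117 and 4123 of them fell into each. Their expected share rose from 7.53% in the lowest quartile of DMSO fold to 22.5%, 38.8% and 66.1% in the highest. The shares listed under IAA were 0.146% (0.0625 to 0.342), 0.204% (0.103 to 0.401), 0.0972% (0.0378 to 0.2496) and 0.582% (0.391 to 0.865). In the highest quartile, 24 of 4123 regions were kept. Where the expected chance of being listed was 95% or more, 16 of 268 low-background regions were kept (5.97%, 3.71 to 9.48). The interval of the highest quartile lay above those of the lowest and the third and just met that of the second, and in it too nearly all regions were lost.

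**Figure D1:**
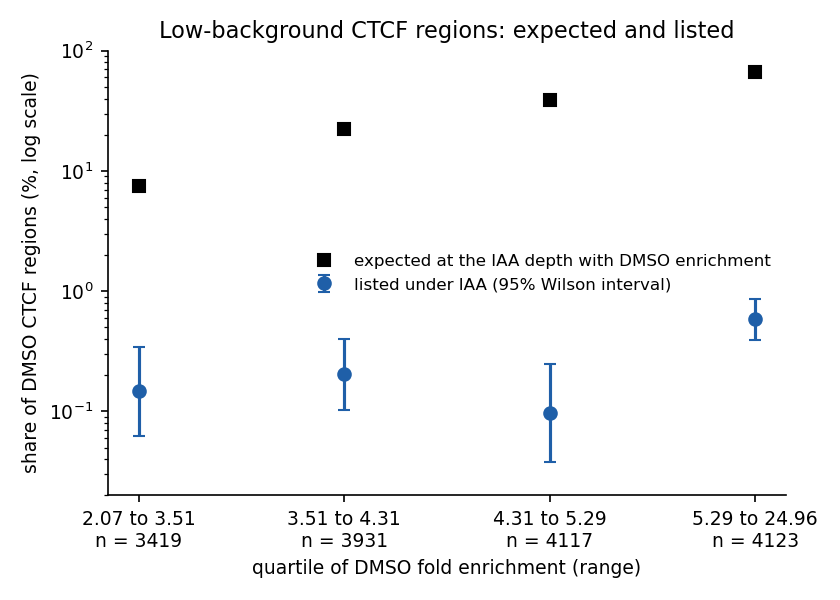
Share of low-background DMSO CTCF regions listed under IAA (circles, with 95% Wilson intervals) and expected at the IAA depth if DMSO enrichment were unchanged (squares), by quartile of DMSO fold enrichment, on a log axis in percent. Quartiles were cut over all DMSO CTCF regions. The expected share climbs from 7.53% to 66.1% while the listed share stays at or below 0.582%.

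The strongest DMSO CTCF sites were mostly among the lost. Of the 20 regions of highest DMSO fold on chromosomes 1 to 22 and X, 3 were kept where 19.97 were expected, of the top 100 regions 10 were kept, and of the top 1000 regions 25 (2.5%) were kept where 857.5 were expected. On chromosome 15, the region from 102519417 to 102520036 had a DMSO fold of 24.96 from a pileup of 148 fragments. Scaled to the IAA depth this is 31.9 fragments, and 8 would have reached the least significance of the IAA list. Its IAA pileup thus stayed under 25.1% of the scaled value, provided that its background also scaled.

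The other lost regions of highest fold gave like limits. On chromosome 9 from 11221 to 11614 (fold 24.3, pileup 158) the limit was 23.5%, and on chromosome 16 from 60817 to 61224 (fold 19.6, pileup 196) it was 26.0%. On chromosome 1 from 11134 to 11698 (fold 19.4, pileup 129) it was 32.4%, and on chromosome 12 from 94049 to 94509 (fold 17.0, pileup 229) it was 26.3%. These 5 regions lay close to the ends of their chromosomes. The remaining 3, of which the first was also within 1 Mb of an end, lay on chromosome 9 from 998543 to 999029 (fold 15.4, limit 35.4%), on chromosome 17 from 39818906 to 39819245 (fold 15.3, limit 33.6%) and on chromosome X from 10087482 to 10087922 (fold 14.3, limit 38.3%). All 8 had MBD2, MBD3 and TET1 regions in DMSO, and the nearest IAA CTCF region was between 27971 and 13767039 bp away. In all, 88 lost regions had a limit under 50%, all of them in the highest quartile of fold. The limit is calculated from the DMSO pileup and background alone and falls as the DMSO fold rises. Naming regions for a high DMSO fold thus favours low limits. The caller also needs a minimum length, which such limits do not include.

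The kept regions were split into 2 kinds by their local background in DMSO, at a cut chosen after the data were seen. Low background was found for 41 kept regions, and 125 kept regions had over 3 times the floor, called raised background below. The raised kind was mixed, with 21 regions between 3 and 10 times the floor and 68 above 100 times. The median background was 2.22 times the floor in the first kind and 104.1 times the floor in the second, with a maximum of 2422 times. The share of DMSO regions kept rose with the background. It was 0.263% of 15590 regions at most 3 times the floor, 1.34% of 1564 between 3 and 10 times and 5.88% of 68 between 10 and 30 times. It was 28.8% (21.2 to 37.9) of 111 regions between 30 and 100 times and 63.6% (54.1 to 72.1) of 107 regions above 100 times the floor. In these last 2 classes the expected shares were 75.3% and 86.2%, so that the listed share came nearest to the expected one at the highest background. The median DMSO fold was 1.71 above 100 times the floor and 4.41 at most 3 times the floor.

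**Figure D2:**
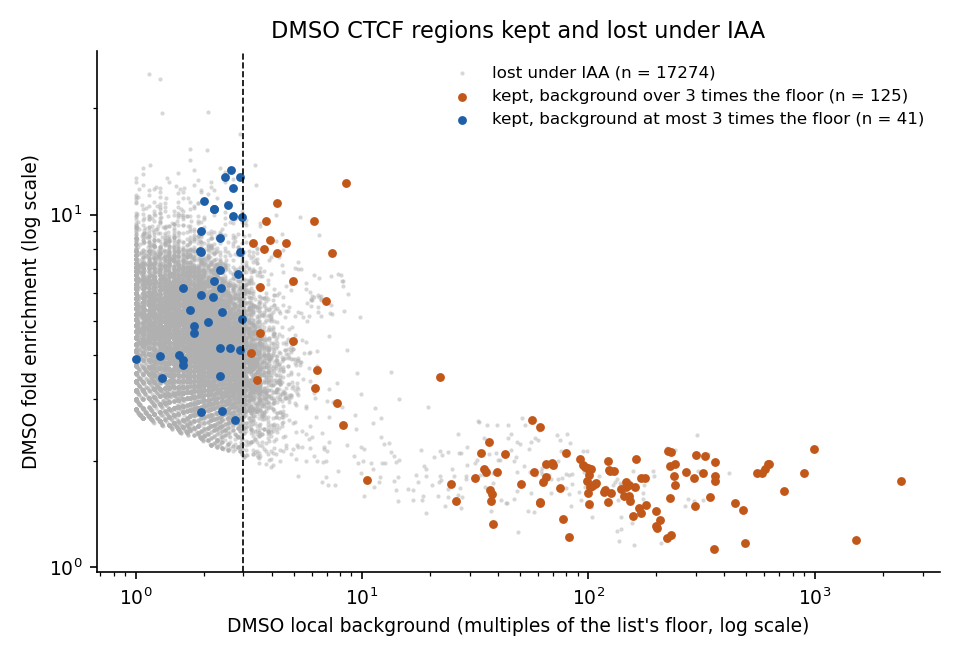
DMSO fold enrichment against DMSO local background, in multiples of the floor of the list, for each DMSO CTCF region, both on log axes. Grey points are the 17274 lost regions, blue the 41 kept regions of low background and orange the 125 kept regions of raised background, many of which form a band of low fold and high background at the right. The dashed line marks 3 times the floor.

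In position, the kept regions of raised background stood apart. Of the 166 kept regions, 34 (20.5%) lay on contigs outside chromosomes 1 to 22 and X, against 0.892% of lost regions, and 33 of these 34 had raised background. Among regions of raised background the shares were 26.4% (19.5 to 34.7) of kept and 4.41% (3.53 to 5.48) of lost. The contig Un_gl000226 held 17 kept of 18 DMSO regions, 9_gl000199_random held 14 of 69, and 2 further unplaced contigs held the other 3. On chromosomes 1 to 22 and X, 67 of 132 kept regions (50.8%, 42.3 to 59.1) lay within 1 Mb of the longest stretch of their chromosome without a region in any list, against 1.66% (1.48 to 1.87) of lost regions. All 67 had raised background, where the shares were 72.8% (62.96 to 80.9) of 92 kept and 7.88% (6.68 to 9.28) of lost regions. How far the differences at raised background go with the higher background of the kept regions was not tested. At low background 0 of 40 kept regions lay there (upper limit 8.76%), an interval that includes the 1.00% of lost regions of low background. These stretches were read from the lists themselves, since no hg19 annotation was used, and this measure was chosen after the data were seen. Near chromosome ends, within 1 Mb of the first base or of the furthest listed position, lay 4 of 132 kept regions (3.03%, 1.18 to 7.53) and 1.99% (1.79 to 2.21) of lost regions, with overlapping intervals. Within 100 kb lay 3 of 132 kept regions (2.27%, 0.776 to 6.47) and 67 lost regions (0.391%, 0.308 to 0.497), whose intervals did not overlap. Within each background class they did overlap. At low background they were 1 of 40 (2.5%, 0.443 to 12.9) and 0.381% (0.296 to 0.492). At raised background they were 2 of 92 (2.17%, 0.598 to 7.58) and 0.485% (0.246 to 0.954), so the difference rests on few regions.

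Kept regions of raised background came in runs. When kept regions up to 100 kb apart were joined, 65 of the 132 on chromosomes 1 to 22 and X fell into 13 runs of 3 or more. These runs were named after their values were seen. The longest by number was on chromosome 2 from 92290597 to 92325287, where 12 of 19 DMSO CTCF regions were kept. Their DMSO folds were 1.36 to 2.14, their IAA folds 1.55 to 2.56, and all 12 also had an MBD2 region under IAA. On chromosome X from 61683069 to 61731349, 7 of 19 DMSO regions were kept, with DMSO folds of 1.40 to 2.11. On chromosome 8 from 46842211 to 46850377, 5 of 5 were kept, with folds of 1.21 to 1.51. A run of another kind lay on chromosome 17 from 18965078 to 19093699, where 5 of 15 DMSO regions were kept with DMSO folds of 6.78 to 13.4 and IAA folds of 4.20 to 9.53. Its backgrounds were 2.64 to 8.47 times the floor, and all 5 had all 3 partners in DMSO.

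By chromosome, the kept share ran from 0 on chromosomes 13, 20, 21 and 22 (479, 397, 153 and 380 DMSO regions) to 1.62% of 743 regions on chromosome X. Low-background kept regions were spread more thinly, with at most 5 on any chromosome, on chromosome 1, and 36 of the 40 on chromosomes 1 to 22 and X were more than 100 kb from any other kept region. No gene, exon or intron is given for these regions, because the annotation used here was of another genome build.

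The low-background kept regions of highest fold had all 3 partners in DMSO, as did the lost regions of highest fold named above. On chromosome 17 from 18965078 to 18965796, the DMSO fold was 13.4 with 166 fragments, and the IAA region had a fold of 9.53 with 32 fragments and a summit 1 bp away. On chromosome 6 from 133890029 to 133890460, the DMSO fold was 12.8 with 150 fragments, and under IAA 5.78 with 13 fragments, again with a summit 1 bp away. On chromosome 9 from 141121230 to 141121650, a fold of 12.8 with 172 fragments stood beside 6.78 with 24 fragments. These regions held 89.4%, 40.2% and 64.7% of the pileup that the depth ratio would give. They were named for a high DMSO fold, a choice that favours low ratios to DMSO.

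Further kept sites of this kind were a region on chromosome 12 from 12857575 to 12857962, where folds were 11.9 in DMSO and 5.58 under IAA, and one on chromosome 14 from 35024829 to 35025885, where they were 10.96 and 8.03. On chromosome 10, the region from 33297629 to 33297998 had folds of 10.7 and 5.04, and that from 21558905 to 21559284 had 10.3 and 7.30. On chromosome 15 from 75052424 to 75053008, they were 10.3 and 4.78. Pileups at these 5 sites were 106 to 150 fragments in DMSO and 12 to 24 under IAA, or 43.5% to 91.9% of the depth-scaled value. The same choice bears on these ratios, and the values over all 41 regions follow below. Of the 8 kept regions of highest fold regardless of background, 2 had raised background. They lay on chromosome 17 from 19091178 to 19091921 (folds 12.3 and 8.66) and on chromosome X from 100023670 to 100024104 (folds 10.8 and 8.65), at 60.8% and 78.1% of the scaled pileup.

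Over all 41 low-background kept regions, the IAA pileup had a median of 13 fragments and a range of 8 to 35, against a DMSO median of 61 and a range of 20 to 172. Relative to the depth-scaled DMSO pileup the median was 91.9% (80.9 to 127.6), with 22 of 41 below 100% and extremes of 40.2% and 788.6%. The fold was higher under IAA than in DMSO in 19 of the 41, with medians of 5.91 in DMSO and 5.58 under IAA. Over the 125 regions of raised background it was 123.7% (117.7 to 127.7), with 26 below 100%, and the fold was higher under IAA in 87. Their local background under IAA was a median of 23.9% of that in DMSO, close to the depth ratio of 21.6%, and it was 17.0% at low background. Only regions that passed the caller entered these ratios, so weak DMSO regions appear only where their IAA pileup was high. The extremes were a region on chromosome 11 from 18429305 to 18429536, with 20 fragments in DMSO and 34 under IAA, and one on chromosome 6 from 7339462 to 7339661, with 29 and 35. Both had no partner in DMSO, and both were singled out after their values were seen. Across regions, DMSO and IAA folds had a Spearman correlation of 0.38 over the 41 and 0.75 over the 125, as a description of points that share their libraries.

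**Figure D3:**
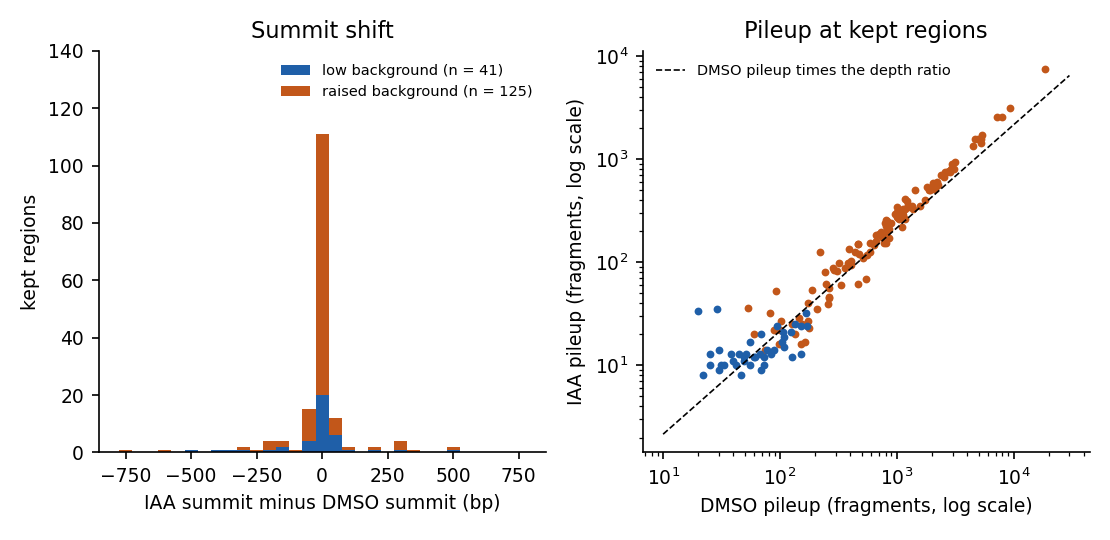
Left, distance from the DMSO to the IAA summit at the 166 kept regions in bins of 50 bp, stacked by DMSO background (blue low, orange raised). Right, IAA against DMSO pileup in fragments on log axes, with the dashed line at the DMSO pileup times the depth ratio of 21.6%. Most summits fall in the central bin, and pileups lie along the line, with 48 of the 166 regions below it.

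At most kept regions the DMSO and IAA summits lay close together. The overlap rule bounds this distance, since a region whose signal moved out of overlap is counted as lost. The distance between the DMSO and the IAA summit had a median of 15 bp (13 to 19), and 114 of 166 were within 25 bp, 132 within 50 bp and 24 beyond 150 bp. Shifts went to higher coordinates in 75 regions and to lower ones in 90. The median was 25 bp (15 to 46) at low background and 13 bp (11 to 17) at raised background, where pileups are larger. Regions with several summits in either list made up 17 of the 24 shifts beyond 150 bp. The 4 largest shifts on chromosomes 1 to 22 and X were 750 bp on chromosome 1 (236876997 to 236878144), 587 bp on chromosome 17 (22245557 to 22246332), 508 bp on chromosome X (58568260 to 58569590) and 502 bp on chromosome 8 (56987052 to 56987402). The first 3 of these regions held 2, 3 and 4 DMSO summits. The chromosome 8 region had 1 DMSO summit, and its IAA region was 673 bp wide against 351 bp in DMSO.

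Kept regions were wider in DMSO than lost ones. Their median width was 376.5 bp (350 to 421), against 251 bp (250 to 252) for lost regions, and it was 370 bp (318 to 432) at low and 377 bp (351 to 435) at raised background. Lost regions had medians of 250 bp (249 to 251) at low and 264 bp (261 to 269) at raised background. A wider region offers more bases to overlap, and the part of this larger target in the difference was not tested. Widths and numbers of summits were also not matched for strength. The median DMSO pileup was 472 fragments at kept and 38 at lost regions, and 61 and 37 at low background. Several summits were found in 50 of 166 kept regions (30.1%, 23.7 to 37.5) and in 351 lost regions (2.03%, 1.83 to 2.253). They were found in 5 of the 41 and in 45 of the 125, against 1.66% and 5.39% of lost regions of low and raised background. Under IAA the same places were narrower in 151 regions and wider in 14, with a median ratio of widths of 0.79, or 0.58 at low background.

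**Figure D4:**
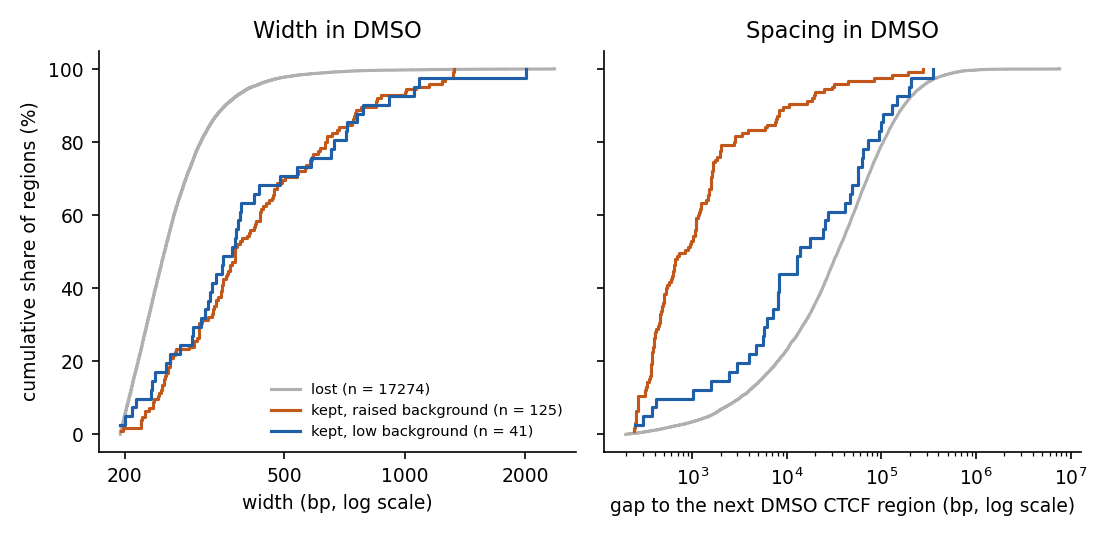
Cumulative share of DMSO CTCF regions in percent by width (left) and by gap to the next DMSO CTCF region (right), in bp on log axes, for lost regions (grey), kept regions of raised background (orange) and kept regions of low background (blue). Both kept curves lie to the right of the lost curve over nearly all widths, while for spacing the raised-background curve lies far to its left; 8 lost regions alone on their contig have no gap.

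Kept regions also lay closer to their neighbours. The gap to the next DMSO CTCF region had a median of 1244.5 bp (959 to 1651) for kept and 34664.5 bp (33794 to 35611) for lost regions. The short gaps belonged mainly to raised background, with a median of 834 bp (566 to 1100) and 66 of 125 under 1 kb. Lost regions of raised background had a median of 18722 bp (16210 to 20993), with 10.1% under 1 kb. At low background the median was 13758 bp (7171 to 48410), 4 of 41 gaps were under 1 kb, and 6 were over 100 kb. Lost regions of low background had a median gap of 36900 bp (35750 to 37996), inside the interval of the kept ones. The share of gaps under 10 kb did differ beyond its interval, at 18 of 41 (43.9%, 29.9 to 58.96) against 21.4% (20.8 to 22.04).

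Partners in DMSO were more frequent at kept regions. An MBD2 region was present at 147 of 166 kept regions (88.6%, 82.8 to 92.5) and at 67.2% of lost ones. An MBD3 region was present at 156 (94.0%, 89.3 to 96.7) against 46.0%, and a TET1 region at 140 (84.3%, 78.0 to 89.1) against 33.4%. All 3 were present at 132 kept regions (79.5%, 72.7 to 84.96), against 22.5% (21.9 to 23.1) of lost ones, and 6 kept regions had none. The excess held at low background, where 29 of 41 kept regions (70.7%, 55.5 to 82.4) and 21.3% (20.7 to 21.95) of lost regions had all 3. At raised background 103 of 125 kept regions (82.4%, 74.8 to 88.1) and 33.2% (31.0 to 35.4) of lost regions had them. Above 100 times the floor they were found at 57 of 68 kept regions and at 75 of all 107 (70.1%). How much of the excess over all regions goes with the background was not tested.

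The number of partners was also read among regions of like strength. Within the highest quartile of DMSO fold at low background, 22 of 1835 regions with all 3 partners were kept (1.20%, 0.793 to 1.81). With 2 partners 1 of 1200 was kept (0.0833%, 0.0147 to 0.471), with 1 partner 0 of 780 (upper limit 0.490%), and with no partner 1 of 308 (0.325%, 0.0573 to 1.82). The interval for no partner overlaps that for all 3. In the lower 3 quartiles 7 of 1506 regions with all 3 partners were kept (0.465%, 0.225 to 0.956). With 2, 1 and no partners 4 of 2734 (0.146%, 0.0569 to 0.376), 3 of 3711 (0.0808%, 0.0275 to 0.237) and 3 of 3516 (0.0853%, 0.0290 to 0.251) were kept there, all with intervals that overlap that for all 3. The depth calculation gave expected shares of 75.2%, 63.9%, 55.0% and 48.5% for these classes of the highest quartile, so strength within it still differed with the number of partners.

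By combination, kept shares over all backgrounds were lowest without MBD3. They were 2 of 3660 regions with MBD2 alone, 0 of 374 with TET1 alone, 2 of 1224 with MBD2 and TET1, and 6 of 4083 with none. With MBD3 they were 7 of 940 for MBD3 alone, 6 of 296 for MBD3 and TET1, 11 of 2847 for MBD2 and MBD3, and 132 of 4016 for all 3. At low background the combinations with MBD3 but without a full set held few kept regions, 1 of 824, 0 of 254 and 4 of 2558, against 2 of 3307 with MBD2 alone. The higher share of MBD3 without MBD2 thus came from raised background.

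**Figure D5:**
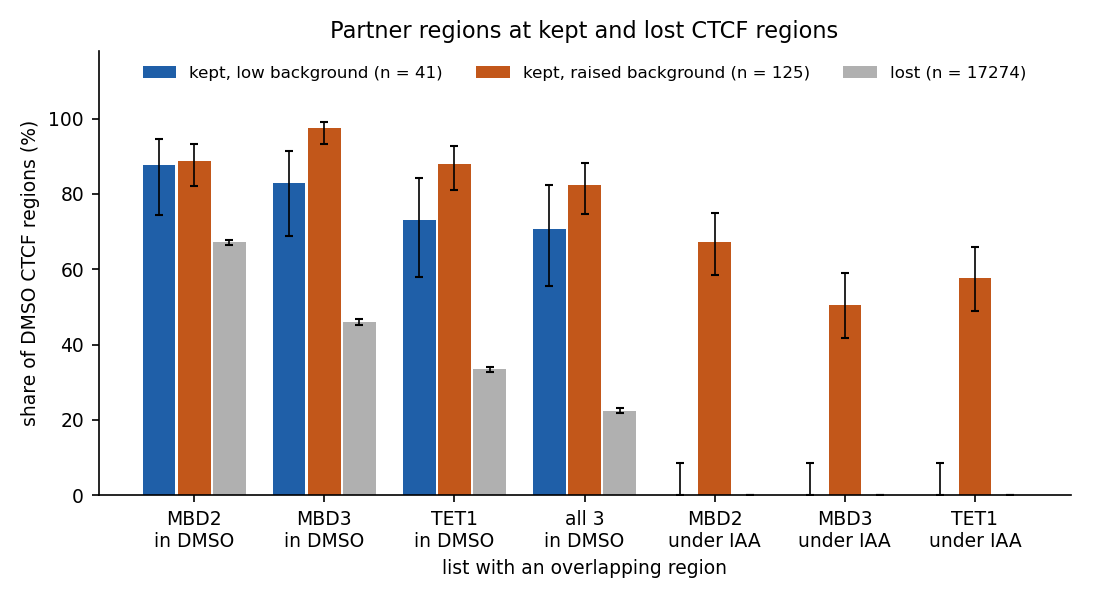
Share of DMSO CTCF regions in percent that overlap an MBD2, MBD3 or TET1 region in DMSO, all 3 in DMSO, or each of them under IAA, for kept regions of low (blue) and raised background (orange) and for lost regions (grey), with 95% Wilson intervals. Both kept groups exceed the lost one in DMSO, while under IAA partner regions are found at raised background and at 0 of 41 low-background regions.

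Partner summits lay close to the CTCF summits in both kept and lost regions. The median distance to the MBD2 summit was 6 bp (5 to 9) at kept and 11 bp (11 to 12) at lost regions. For MBD3 it was 6 bp (5 to 7) and 11 bp (11 to 12), and for TET1 8.5 bp (6 to 12) and 14 bp (13 to 14). At low background the kept medians were 9, 11 and 17 bp, and their intervals include the medians of lost regions of low background, at 12, 12 and 14 bp. The share within 50 bp was 85.7% for kept and 94.2% for lost regions with MBD2. Among the named low-background sites, the region on chromosome 6 from 133890029 had MBD2, MBD3 and TET1 summits at 0, 6 and 0 bp, and that on chromosome 14 from 35024829 had them at 74, 70 and 78 bp.

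Partner regions under IAA also differed between the 2 kinds of kept region. Over all DMSO CTCF regions, an IAA region of MBD2, MBD3 and TET1 was found at 0.631%, 0.442% and 0.459%. Among the 125 kept regions of raised background these were found at 84 (67.2%, 58.6 to 74.8), 63 (50.4%, 41.8 to 59.0) and 72 (57.6%, 48.8 to 65.9), and 94 had at least 1. At least 1 was found at 5 of 21 kept regions between 3 and 10 times the floor and at 2 of 4 between 10 and 30 times. The counts were 22 of 32 between 30 and 100 times and 65 of 68 above 100 times. Among the 41 of low background none was found for any of the 3, with an upper limit of 8.57%, and any of them was found at 4 of 15549 lost regions of low background (0.0257%). In DMSO 36, 34 and 30 of these 41 had had MBD2, MBD3 and TET1 regions. The IAA lists of the partners were short, with 138, 95 and 100 regions, and the antibodies were not compared for depth at these sites. Lost regions with any partner region under IAA numbered 37 of 17274 (0.214%), of which 33 had raised background (1.91%, 1.37 to 2.67).

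The DMSO CTCF regions kept under IAA were in part those kept under BPK25. A CTCF region under BPK25 was found at 1.27% of all DMSO CTCF regions, at 79 of 166 regions kept under IAA (47.6%, 40.1 to 55.2) and at 0.828% of lost ones. At raised background the count was 74 of 125 (59.2%, 50.4 to 67.4), against 5.74% (4.74 to 6.94) of lost regions of raised background. At low background it was 5 of 41 (12.2%, 5.32 to 25.5), where lost regions of low background gave 0.283% (0.211 to 0.380). Both comparisons use the same DMSO list. TET1 regions under BPK25 were found at 18 of the 41 (43.9%, 29.9 to 59.0) and at 2.87% of lost regions of low background. The other BPK25 lists differed likewise, with MBD2 at 13 (31.7%) against 0.695% and MBD3 at 7 (17.1%) against 0.174%. These shares were not matched for DMSO strength or for local background within each kind. Most of the named lost regions of highest fold also had a TET1 region under BPK25.

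The rest of the IAA list differed from the regions it shared with DMSO. The 425 IAA regions away from DMSO CTCF regions had a median fold of 7.76 from a median pileup of 18 fragments, and 405 of them had a background of at most 3 times the IAA floor. The 170 at DMSO regions had a median fold of 2.12 from 130.5 fragments, and 48 were at most 3 times the floor. Of all 453 IAA regions of low background, 48 (10.6%, 8.09 to 13.8) thus lay at a DMSO region. The IAA list thus held mostly regions of low background that DMSO did not list, and its overlap with DMSO lay mostly at raised background.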

How the data were processed

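ChIP-seq libraries (3 per treatment and antibody) were pooled by the authors before peak calling, per the labels. MACS2 2.1.2, Bowtie2 2.3.4, SAMtools 1.9 and the build hg19 are named, without roles or settings, per the submitters' processing notes. The deposited lists give each peak's fold enrichment as a linear ratio over local background. They also give the deposited −log10 p-value and −log10 q-value and the summit offset in bp (counted from 0, printed here from 1). These values are the authors' and were used only to describe peaks within a list.

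Entries with the same start and end became 1 region, described by its most significant summit. Pileup and background were solved from fold = (pileup + 1)/(background + 1) and the Poisson upper tail. All 17440 DMSO and 595 IAA CTCF regions fitted within 0.02% of their −log10 p. After shuffling p-values, 1.29% and 3.84% of regions with a pileup under 100 did. The depth of single libraries is unknown. The expected share is the Poisson probability that a depth-scaled pileup reaches the least IAA −log10 p.

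Members and lists were chosen with earlier results of these data known, and the depth calculation, background classes, unlisted stretches and runs were added after the data were seen. Named regions are the 8 kept, 8 low-background kept and 8 lost regions of highest DMSO fold and the 4 largest summit shifts, on chromosomes 1 to 22 and X. Scripts were tested on simulated data and used Python 3.11.15, numpy 2.4.6, pandas 2.3.3, SciPy 1.17.1 and matplotlib 3.10.9. Alternatives covered the −log10 q threshold, the overlap rule, the chromosomes, the background and the list length.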

Additional observations from a re-analysis of the deposited data

How the results depend on the processing

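The kept share of 0.952% became 0.814% with summits within 150 bp, 0.765% on chromosomes 1 to 22 and X, 0.263% at a background of at most 3 times the floor, and 14.8% (88 of 595) with the DMSO list shortened to the IAA length by −log10 q, which selects regions of large pileup. Under the first 3 of these settings the share of IAA regions at DMSO regions was 23.9%, 25.05% and 6.89%, the last as a share of all 595 IAA regions with only the DMSO list limited by background. At that low background, the median summit shift was 25 bp, the share with all 3 partners 70.7% and the median gap 13758 bp. The share with all 3 partners was 68.3% with summits within 150 bp, where lost regions gave 21.5%. This rule and that of 50% overlap were also applied to the partner regions, so both definitions changed together. The median gap was 1696 bp on chromosomes 1 to 22 and X. The median width stayed within its interval in every setting run, and no result left its interval with a −log10 q of 5 or more or an overlap of at least 50%. The share expected at the IAA depth was 41.1% with the depth ratio from local background at raised-background kept regions, 28.4% with that from the low-background ones, 15.7% with 50% of the depth ratio and 21.6% with a −log10 p of 6.98 needed, settings chosen after seeing the data. No paired analysis was possible because each list pools its 3 replicates, and for the same reason leaving out a replicate was not run. Pileups of 8 to 35 fragments limit what the IAA list shows at low background.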
